A study of Mus musculus with 11 samples.

Results

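The genes followed here encode the integrins and laminins of the mouse, measured in 27 RNA libraries of oviduct, ovarian surface epithelium (OSE), organoids grown from both, mutant oviductal organoids, and the tumors and tumor-derived organoids that came from the mutants. They were taken by symbol alone, as every gene named as an integrin alpha or beta subunit or as a laminin alpha, beta or gamma chain. This gave 37 of the 18305 genes counted, namely 26 integrin and 11 laminin genes.

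Laminins are trimers of an alpha, a beta and a gamma chain that polymerize into the basement membrane, the sheet on which epithelial cells sit. Integrins are receptors built from an alpha and a beta subunit that hold cells to this sheet or to other matrix proteins, and some of them, those of leukocytes and platelets, bind other cells instead. In epithelia, the laminin with Lama3 and Lamb3 is bound by the integrin of Itga6 and Itgb4 in hemidesmosomes, Lama5 with Lamb1 or Lamb2 and Lamc1 makes up much of the remaining laminin, and Itga3 with Itgb1 binds both.

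The 27 libraries were bulk CEL-Seq2 libraries, in which reads come from the 3′ ends of transcripts, so levels were compared between libraries and not between genes. The first groups came from normal material of adult female mice of the C57BL/6 strain or of a strain with Cas9 and EGFP driven from the Rosa26 locus by the CAG promoter. They were oviduct tissue (n = 3) and OSE tissue (n = 3), 3 lines of oviductal organoids and 2 lines of OSE organoids.

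The oviductal organoids with Cas9 and GFP but no guide (Cas9-GFP organoids, n = 3) were the controls of 3 TBP clones, clonal oviductal organoids that carried guide-made mutations, among them of Trp53 and Brca1 (on 1 allele), and had been selected with Nutlin-3a. The TBP tumors (n = 6) grew under the skin of immunodeficient mice from TBP clones of oviductal origin and still held cells of the host. The 4 tumor-derived organoid lines were cultured from such tumors under Nutlin-3a, 2 as epithelial lines (T2-epi and T4-epi) and 2 as lines that also held fibroblast-like cells (T1-mes and T3-mes). T1-mes and T2-epi came from neighboring tumors of 1 mouse. All organoids grew in a basement membrane extract, a gel that itself contains laminin protein, and their RNA was isolated with another kit than that of the tissues, so culture and RNA isolation cannot be told apart. Each library of wild-type or tumor-derived organoids stood for 1 line. The paper describes 2 independent clones per combination of mutations, so the 3 TBP libraries and the 6 tumors shared clones at least in part. Which ones did is not given in the sources used here. Each mouse received 2 injections of the same clone, so tumors may also share a host. The tests took each library as a separate unit.

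Libraries held between 82239 counts (TBP clone 1) and 4531767 counts (TBP clone 3), the lowest total besides TBP clone 1 being 600579. A single count was therefore worth more CPM in TBP clone 1 than in any other library, and its zeros say little. Integrins and laminins together took 0.135 to 0.373% of the counts of a library. OSE organoids 2 stood apart from its label in that Ovgp1, the oviductal glycoprotein, was at 3243 CPM, against 19.1 CPM in OSE organoids 1, and results that rest on it are given with and without it. OSE tissue was rich in granulosa and steroidogenic markers, whose summed level was 9509 to 11494 CPM, against 68.2 to 275 CPM in oviduct tissue. Oviduct tissue held smooth muscle (summed markers 5579 to 7004 CPM) and fibroblasts (3972 to 7141 CPM) beside its epithelium. In such bulk samples, fewer cells of a type and less RNA per cell cannot be told apart.

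Levels are CPM, the counts of a gene relative to the size of its library, scaled with TMM factors over all libraries. Differences are log2 fold changes with their standard errors (SE) from edgeR's quasi-likelihood test, fitted over all genes with enough counts, and a gene is called when its Benjamini-Hochberg adjusted p over all genes tested is under 0.05. Where the lower group held no count at all, the difference is given as a bound that sets that group at 3 counts in total, and where it held 1 to 3 counts, as the ratio of pooled counts. The bounds and the intervals of these ratios cover counting error only.

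Regulatory sequence was at hand for some of the genes that set organoids apart from tissue. RefSeq promoters (GRCm38.p6) were matched for 23 of the 37 genes, with 26 start sites, and the 250 bases before the start are shown for 3 genes whose level was higher in organoids of both origins or, for Lamb3, in oviductal organoids: Lamb3 (gene at chr1:193207699-193343878, plus strand, promoter chr1:193301744-193301993), Itgb6 (chr2:60598292-60722643, minus strand, promoter chr2:60722604-60722853) and Lama5 (chr2:180176373-180225859, minus strand, promoter chr2:180225860-180226109). Each is printed 5′ to 3′ on the strand of its gene. Capitals mark matches to the GC box GGGCGG on either strand.
Lamb3: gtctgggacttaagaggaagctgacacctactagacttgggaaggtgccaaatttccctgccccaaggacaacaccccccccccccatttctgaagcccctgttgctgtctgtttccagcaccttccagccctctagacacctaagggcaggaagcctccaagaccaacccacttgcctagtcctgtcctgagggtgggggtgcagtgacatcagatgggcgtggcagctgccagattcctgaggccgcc
Itgb6: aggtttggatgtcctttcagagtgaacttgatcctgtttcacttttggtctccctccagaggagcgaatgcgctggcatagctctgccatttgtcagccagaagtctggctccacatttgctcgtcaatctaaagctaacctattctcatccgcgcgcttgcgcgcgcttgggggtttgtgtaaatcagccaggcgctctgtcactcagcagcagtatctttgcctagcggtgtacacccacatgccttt
Lama5: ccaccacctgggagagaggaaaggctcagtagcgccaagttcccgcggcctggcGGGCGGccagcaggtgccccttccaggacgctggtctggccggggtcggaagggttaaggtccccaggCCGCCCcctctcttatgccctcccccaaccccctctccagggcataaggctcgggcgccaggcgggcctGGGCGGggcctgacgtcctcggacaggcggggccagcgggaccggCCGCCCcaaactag

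The Lama5 window held 4 GC boxes, 196, 128, 59 and 14 bases before the start, whereas the windows of Lamb3 and Itgb6 held none. GC boxes stood in 9 of the 26 promoters of the set and in 32.7% of 32851 RefSeq promoters cut to the same length. The AP-1 motif TGANTCA, which is its own reverse complement, was found in none of the 3 windows, in 1 of the 26 promoters (Itgax, 56 bases before the start) and in 6.75% of all promoters. The motifs do not overlap. A missing match says only that these letters are not in the window.

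**Figure D1:**
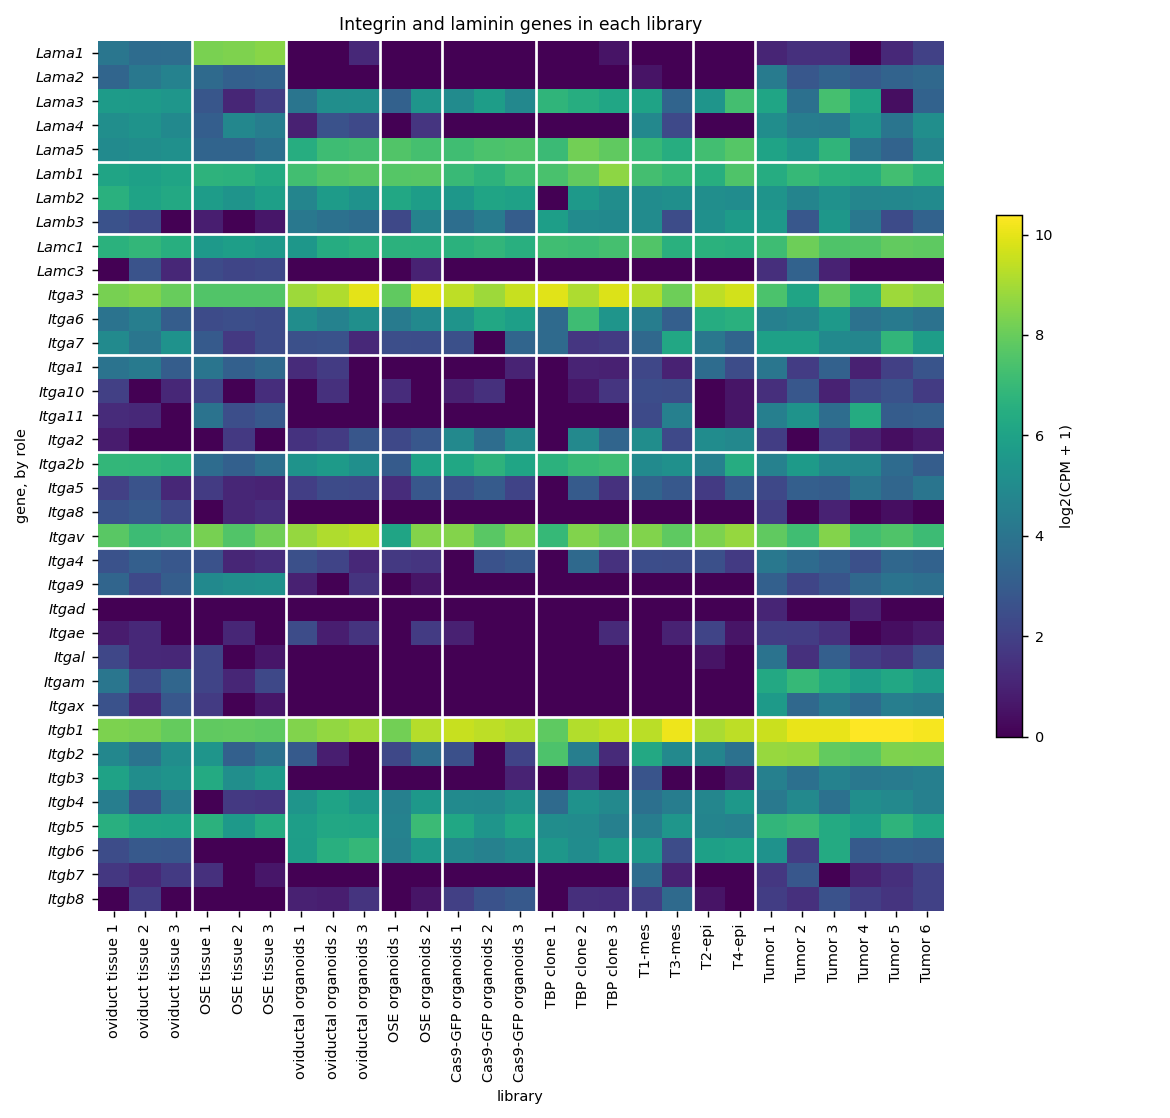
Heat map of log2(CPM + 1) for integrin and laminin genes (rows, by role) in the 27 libraries (columns, by group). Lama5 is bright across the organoid columns and Itgb6 in those other than T3-mes, Lama1 is bright in OSE tissue and Itgam, Itgax and Itgb2 in the tumors.

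To see which parts of the adhesion machinery the cultures shared with the tissue they came from, oviductal organoids were compared with oviduct tissue. The laminin chains Lama5, Lamb1 and Lamb3, the integrins of laminin Itga3, Itga6, Itgb1 and Itgb4 and the pair of Itgav and Itgb6 were higher in the organoids, while Lamb2 and several laminin chains and integrins known from muscle, vessels, platelets and leukocytes were lower. Of the 37 genes, 22 had enough counts for the test, and 19 of these were called, 10 higher and 9 lower. Among all 9477 genes tested, 18.7% were called higher and 24.2% lower. The median log2 fold change was -0.32 over the 22 genes and -0.02 over all genes. Levels of the 2 groups did not overlap for 11 genes that were higher and 17 that were lower in the organoids, of all 37, as was the case for 15.6% and 21.6% of all 18305 genes counted.

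Lamb3, the beta chain of the laminin of hemidesmosomes, was at 16.7, 13.5 and 11.8 CPM in the oviductal organoids and at 5.08, 3.95 and 0 CPM in oviduct tissue (log2 fold change 2.05 ± 0.57 (SE), adjusted p = 0.0114). The groups did not overlap, at low counts. Lama3, the alpha chain of the same laminin, went the other way without being called: it was at 15.3, 33.9 and 34.8 CPM in organoids and 50.8, 50.0 and 42.8 CPM in tissue (-0.82 ± 0.32 (SE), adjusted p = 0.0572). All 3 organoid libraries were below the tissue, the first of them by most. Lama5, the alpha chain of most epithelial basement membranes, was at 87.7, 145 and 156 CPM against 30.5, 32.9 and 36.7 CPM (1.94 ± 0.27 (SE), adjusted p = 0.000108), and Lamb1, a beta chain used in many tissues, at 149, 188 and 206 CPM against 65.3, 59.2 and 66.0 CPM (1.49 ± 0.20 (SE), adjusted p = 8.5e-05). Neither overlapped with the tissue. Lamc1, the gamma chain that joins them, was at 44.8, 84.6 and 97.8 CPM against 98.0, 116 and 90.4 CPM and was not called (-0.44 ± 0.28 (SE), adjusted p = 0.224).

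Among the receptors called higher, Itgb6 had the largest change. This beta subunit of epithelia pairs with Itgav and releases active TGF-beta from its latent form. It was at 53.9, 92.2 and 121 CPM in oviductal organoids and 4.35, 6.58 and 6.11 CPM in tissue (3.99 ± 0.41 (SE), adjusted p = 1.32e-05), and no organoid library came near the tissue. Itgav was at 426, 575 and 647 CPM against 212, 139 and 155 CPM (1.68 ± 0.22 (SE), adjusted p = 6.22e-05), so that both subunits were called. Itgb4, the hemidesmosome subunit, was at 42.4, 63.5 and 45.3 CPM against 21.0, 5.26 and 20.8 CPM (1.59 ± 0.38 (SE), adjusted p = 0.0046). Itga3, which binds laminin together with Itgb1, was at 466, 568 and 990.2 CPM against 308, 339 and 248 CPM (1.16 ± 0.26 (SE), adjusted p = 0.00359). All organoid libraries exceeded the tissue for these 3 genes too. Itga6, the partner of Itgb4, and Itgb1 were called higher as well. The call of Itga6 was lost without oviductal organoids 3 (adjusted p = 0.0714), oviduct tissue 1 (0.0865) or oviduct tissue 3 (0.0842), and that of Itgb1 without any 1 library but oviductal organoids 1 (adjusted p = 0.0652 to 0.146).

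The genes that were lower in oviductal organoids were mostly those known from other cell types. Itgb3, the beta subunit of platelets, vessels and osteoclasts, had no count in the organoids and 62.4, 32.9 and 39.1 CPM in tissue, at least 77.4-fold lower. Lama2, the alpha chain of muscle, had no count either, against 9.43, 17.1 and 23.2 CPM (at least 24.4-fold lower). Lama1, an alpha chain of embryonic and some adult epithelia, had 2 counts in the 3 organoid libraries and 16.0, 11.8 and 12.2 CPM in tissue (33.3-fold lower, with a 95% exact interval of 8.65 to 284). These 3 genes were thus at or near 0 in every oviductal organoid library. Lama4, the alpha chain of vessel walls, was at 0.954, 5.08 and 3.94 CPM against 34.1, 39.5 and 29.3 CPM (-3.48 ± 0.47 (SE), adjusted p = 8.92e-05). Itga1, a collagen receptor, was at 1.43, 2.54 and 0 CPM against 14.5, 18.4 and 7.33 CPM (-3.34 ± 0.65 (SE), adjusted p = 0.00138). Its gene overlaps Pelo on the same strand, so reads of the pair may be split, and without oviduct tissue 1 it had too few counts to be tested. Itgb2, the common beta subunit of leukocyte integrins, was at 6.68, 0.846 and 0 CPM against 26.8, 14.5 and 33.0 CPM (-3.07 ± 0.68 (SE), adjusted p = 0.00312).

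Itga7, a laminin receptor best known from muscle, was at 4.77, 5.08 and 1.31 CPM in the organoids and 30.5, 15.8 and 37.9 CPM in tissue (-2.91 ± 0.48 (SE), adjusted p = 0.000433). Itga2b, which pairs with Itgb3 on platelets, was at 39.1, 49.9 and 34.8 CPM against 117, 113 and 105 CPM (-1.46 ± 0.21 (SE), adjusted p = 0.000129), well above 0 in all organoids while its partner Itgb3 was at 0. Neither gene overlapped between the groups. Lamb2 was the last gene called lower. Marker levels moved along with these genes: summed fibroblast markers were 0 to 5.08 CPM in the organoids, smooth muscle markers 0.846 to 6.68 CPM against 5579 to 7004 CPM, endothelial markers 10.5 to 28.8 CPM against 173 to 191 CPM, and epithelial markers 5931 to 7853 CPM against 1724 to 2130.3 CPM. Of the 7 leukocyte markers, Cd52, Coro1a, Laptm5 and Tyrobp were at 0 in the oviductal organoids, and their sum (604 to 1200.1 CPM) came almost wholly from Cd53. The part of these cells in the differences was not tested.

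**Figure D2:**
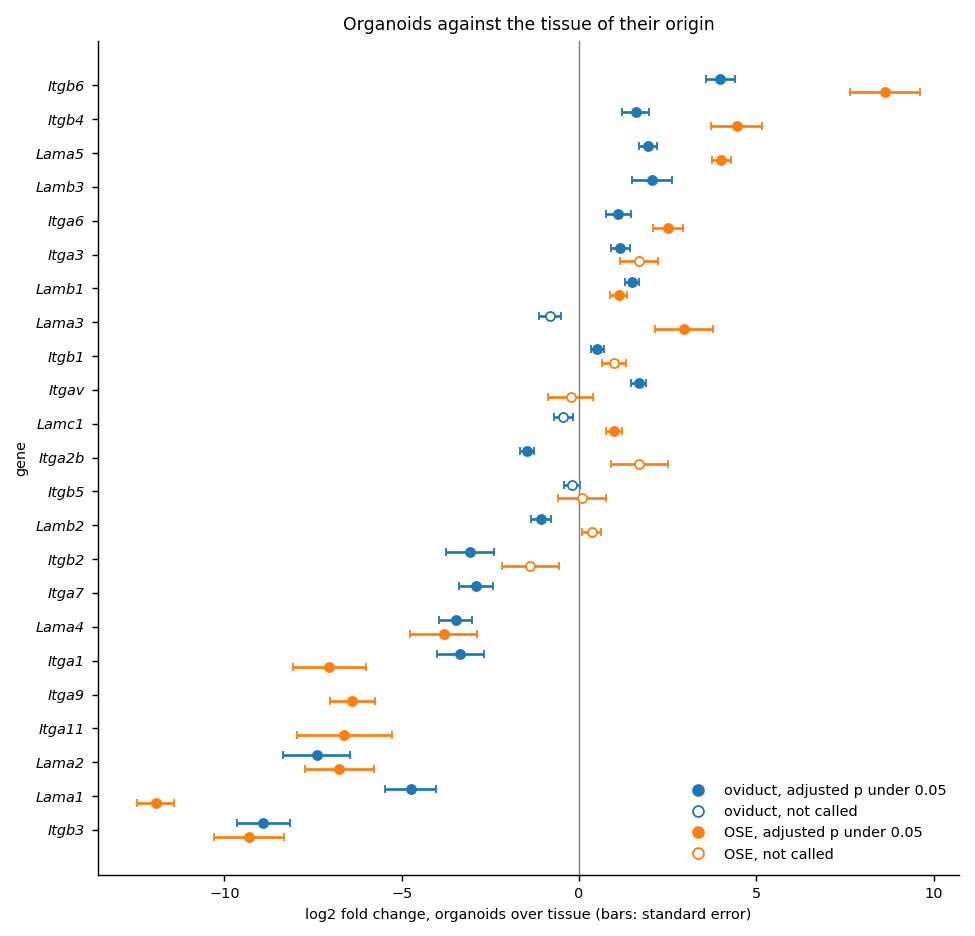
Log2 fold changes (horizontal axis, with SE bars) of integrin and laminin genes for oviductal organoids against oviduct tissue and OSE organoids against OSE tissue, filled points marking called genes. Itgb6, Lama5 and Itgb4 lie right of 0 in both comparisons, and Lama1, Itgb3, Lama2, Lama4 and Itga1 left of 0.

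OSE organoids were then compared with OSE tissue. Of 22 genes tested, 15 were called, 8 higher and 7 lower, whereas 14.5% of all 10232 genes were called higher and 18.6% lower. The median log2 fold change was 0.67 over the genes of the set and -0.06 over all genes. Levels did not overlap for 12 of the 37 genes that were higher and 9 that were lower in the organoids (17.4% and 24.6% of all genes counted). Without OSE organoids 2, the library with oviductal transcripts, 17 were called, among them 14 of the 15, the other, Lama3, having too few counts to be tested, and 52% of all 10493 genes were called in that fit. The 2 organoid libraries differed from each other more than the 3 tissue libraries did (chi-square per gene 35.6 against 2.53 to 5.36). That spread entered the SE of the main fit. The fit without OSE organoids 2 left a single organoid library, which was assumed to vary like the tissue libraries. Its number of called genes therefore cannot show that the calls of the main fit hold.

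Itgb6 was at 22.1 and 45.1 CPM in the 2 OSE organoid libraries and had no count in OSE tissue, at least 47.0-fold higher. Lama5 was at 189 and 158 CPM against 9.31, 9.31 and 13.3 CPM (4.01 ± 0.27 (SE), adjusted p = 0.000351). For both genes the organoid libraries lay far above the tissue. Lama3, on the other hand, was at 8.39 and 42.0 CPM in the 2 organoid libraries, a wide spread, against 5.92, 1.16 and 2.65 CPM (2.97 ± 0.82 (SE), adjusted p = 0.032). Its call was lost without OSE tissue 1 (adjusted p = 0.0728) or OSE tissue 2 (0.122). Lamb3 had too few counts in this comparison to be tested. It was at 3.82 and 24.3 CPM against 0.846, 0 and 0.531 CPM, a pooled ratio 31.7-fold higher, with a 95% exact interval of 8.34 to 268. Itgb4 was at 22.1 and 45.1 CPM against 0, 2.33 and 2.12 CPM (4.45 ± 0.72 (SE), adjusted p = 0.00468) and its partner Itga6 at 19.1 and 29.9 CPM against 4.23, 4.66 and 4.25 CPM (2.51 ± 0.42 (SE), adjusted p = 0.00505). Both hemidesmosome subunits were thus higher in the organoids. Summed epithelial markers were higher there as well, at 8738 to 10361 CPM against 450.0 to 541 CPM in OSE tissue. The part of epithelial content in these differences was not tested.

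Smaller differences were found for the chains that are used widely. Lamb1 was at 198 and 206 CPM against 103, 101 and 80.1 CPM (1.11 ± 0.23 (SE), adjusted p = 0.0111), and Lamc1 at 102 and 97.8 CPM against 48.2, 55.9 and 48.3 CPM (0.99 ± 0.23 (SE), adjusted p = 0.0155). The call of Lamb1 was lost without OSE tissue 2 (adjusted p = 0.0508) or OSE tissue 3 (0.0614), and that of Lamc1 without any 1 of the tissue libraries (0.0539 to 0.0827). Itga3 was at 230.5 and 963 CPM against 187, 192 and 188 CPM and just missed the threshold (1.70 ± 0.54 (SE), adjusted p = 0.0504). Its 2 organoid libraries differed from each other more than the lower one differed from the tissue.

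Lama1 showed the widest gap of the set between OSE organoids and OSE tissue. Its gene lies at chr17:67697259-67822647, plus strand. It was at 319, 336 and 375 CPM in OSE tissue and had no count in the OSE organoids, at least 383-fold lower. Itgb3 (81.2, 33.8 and 49.9 CPM in tissue, at least 61.1-fold lower in organoids), Itga1 (15.2, 8.15 and 10.6 CPM, at least 12.6-fold lower), Lama2 (11.0, 8.15 and 9.02 CPM, at least 10.3-fold lower) and the fibroblast collagen receptor Itga11 (14.4, 4.66 and 6.37 CPM, at least 9.20-fold lower) also had no count in the organoids. Itga9, a receptor for tenascin and other matrix proteins, had 1 count in the organoids and 29.6, 33.8 and 36.1 CPM in tissue (110.5-fold lower, with a 95% exact interval of 19.5 to 4396). Lama4 was at 0 and 2.03 CPM against 7.62, 26.8 and 20.2 CPM (-3.81 ± 0.95 (SE), adjusted p = 0.0213), a call lost without OSE tissue 2 (adjusted p = 0.0767) or OSE tissue 3 (0.0815). Itga11 had too few counts for the test without OSE tissue 1 or 3. Granulosa and steroidogenic markers summed to 8.39 to 22.3 CPM in OSE organoids against 9509 to 11494 CPM in OSE tissue, and their part in the level of Lama1 or Itga9 was not tested.

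**Figure D3:**
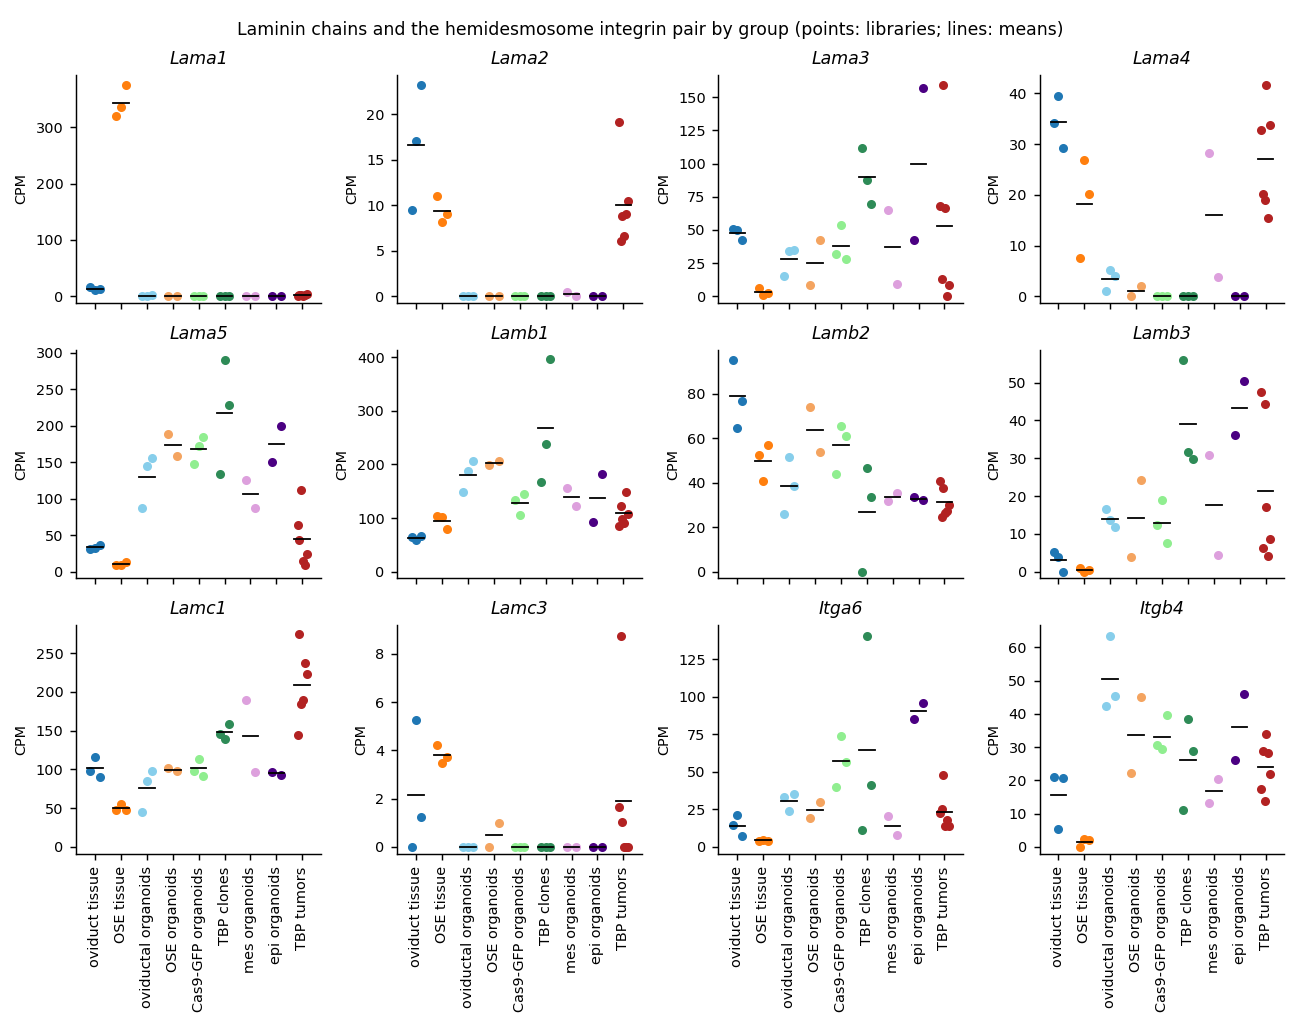
Levels (CPM, linear axes that differ between panels) of laminin chains and of the integrin subunits Itga6 and Itgb4 in each library, by group, with a line at the mean of each group. Lama5 is higher in oviductal and OSE organoids than in either tissue, and Lama1 is high in OSE tissue alone.

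Whether the change from tissue to organoids differed between the 2 origins was tested as the difference between both organoid-to-tissue changes. Of 25 genes tested, 6 were called, 1 with a higher and 5 with a lower change in the oviduct (5% and 6.68% of all 11458 genes). The change of Lama5 was smaller in the oviduct (difference of log2 fold changes -1.95 ± 0.40 (SE), adjusted p = 0.00834), and its level was higher in oviduct than in OSE tissue. Lama3 was lower in oviductal organoids (not called) and higher in OSE organoids than in the tissue, a difference of -3.68 ± 0.87 (SE), adjusted p = 0.017. Itga2b and Itga7 differed by -3.07 ± 0.78 (SE), adjusted p = 0.0239 and by -2.84 ± 0.82 (SE), adjusted p = 0.0425. Lama1 was called as well (7.15, adjusted p = 0.024), but as it had 2 counts in all organoids of these origins, the fitted value depends on how zeros are handled. Single libraries decided some of these calls. Without OSE organoids 2, the differences of Itga2b (-0.65, adjusted p = 0.474), Itga7 (-2.81, adjusted p = 0.0652) and Lama3 (-2.03, adjusted p = 0.0899) were no longer called. That of Lama1 was lost without oviductal organoids 3, the only oviductal organoid library with a count of it, and that of Lama3 also without OSE tissue 3 (adjusted p = 0.0626). Itga2b kept its call in 4 of the 11 fits that each left out 1 library, and Itga7 in 3. The difference of Lama5 was called in each of the 11, but in the fit of all 27 libraries it was -2.06, adjusted p = 0.172, and those of Lama3 (0.213) and Itga7 (0.153) were not called there either.

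The tissues themselves were compared to see which chains mark each origin. Of 19 genes tested, 13 were called, 9 higher in oviduct and 4 higher in OSE tissue, against 26.9% and 24.3% of all 8787 genes. The median log2 fold change was 0.68 for the set and 0.00 for all genes. Levels did not overlap for 16 of the 37 genes that were higher in oviduct and 4 that were higher in OSE tissue (21.2% and 19% of all genes counted). Oviduct tissue had more of these epithelial chains: Lama3 was at 50.8, 50.0 and 42.8 CPM against 5.92, 1.16 and 2.65 CPM (3.84 ± 0.36 (SE), adjusted p = 5.02e-07) and Lama5 at 30.5, 32.9 and 36.7 CPM against 9.31, 9.31 and 13.3 CPM (1.60 ± 0.28 (SE), adjusted p = 0.000191). Neither overlapped between tissues. Summed epithelial markers were also higher in oviduct tissue, at 1724 to 2130.3 CPM against 450.0 to 541 CPM.

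Itga2b was at 117, 113 and 105 CPM in oviduct and 11.8, 8.15 and 12.7 CPM in OSE tissue (3.32 ± 0.22 (SE), adjusted p = 1.12e-08), and Itga7 at 30.5, 15.8 and 37.9 CPM against 6.77, 2.33 and 4.25 CPM (2.63 ± 0.41 (SE), adjusted p = 6.9e-05). Smooth muscle markers, to set beside Itga7, were higher in the oviduct in the same way (5579 to 7004 CPM against 516 to 746 CPM). Their part was not tested. Lamc1 (1.03 ± 0.18 (SE), adjusted p = 0.000221), Lama4 (0.96 ± 0.34 (SE), adjusted p = 0.0268) and Itga3 (0.69 ± 0.16 (SE), adjusted p = 0.00224) differed less, and Lamb2 was called higher too. In OSE tissue, Lama1 was 24.5-fold higher (319, 336 and 375 CPM against 16.0, 11.8 and 12.2 CPM in oviduct tissue; log2 fold change -4.61 ± 0.20 (SE), adjusted p = 2.54e-10) and Itga9 was higher too (29.6, 33.8 and 36.1 CPM against 9.43, 3.95 and 7.33 CPM; -2.14 ± 0.32 (SE), adjusted p = 4.66e-05). Both genes were clear of any overlap. Itgav (-0.58 ± 0.20 (SE), adjusted p = 0.0233) and Lamb1 (-0.54 ± 0.18 (SE), adjusted p = 0.0201) were slightly lower in the oviduct. Some of the smaller differences did not survive the loss of single libraries: the call of Lama4 was lost without oviduct tissue 1, oviduct tissue 2, OSE tissue 1 or OSE tissue 3 (adjusted p = 0.0562 to 0.102), that of Itgav without oviduct tissue 2, OSE tissue 1 or OSE tissue 3 (0.0591 to 0.0955), that of Lamb1 without oviduct tissue 1, oviduct tissue 2, OSE tissue 1 or OSE tissue 2 (0.0543 to 0.072) and that of Lamb2 without oviduct tissue 1 or OSE tissue 2 (0.0535 and 0.0689).

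Between oviductal and OSE organoids, none of the 16 genes tested was called by edgeR or by DESeq2, and 1, Itgb6, had an unadjusted p under 0.05 (1.41 ± 0.48 (SE), adjusted p = 0.349). At an unadjusted p under 0.05, 598 of all 9257 genes were higher in oviductal organoids and 462 lower. By adjusted p, 0.0864% of all genes were called higher in oviductal organoids and 0% lower. In simulated data this test recovered 12% of the genes changed 4-fold, so genes not called may still differ. The 2 OSE organoid libraries were also unlike each other in some genes of the set. For Itgav, the oviductal organoids were at 426, 575 and 647 CPM and the OSE organoids at 67.2 and 357 CPM, and for Itga2b at 39.1, 49.9 and 34.8 CPM against 6.87 and 62.3 CPM, so that OSE organoids 2 resembled the oviductal lines in both and OSE organoids 1 stood alone. Without OSE organoids 2, 5 genes were called higher in oviductal organoids than in the 1 library that was left: Itgav (3.07, adjusted p = 0.000326), Itga2b (2.60, adjusted p = 0.00655), Itgb6 (2.03, adjusted p = 0.0236), Itga3 (1.59, adjusted p = 0.0298) and Itgb5 (1.53, adjusted p = 0.0249). Of all 9844 genes, 14.7% were called in that fit, in which the library left is assumed to vary like the oviductal lines. Lama5, Lamb1 and Lamc1 were not among them.

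**Figure D4:**
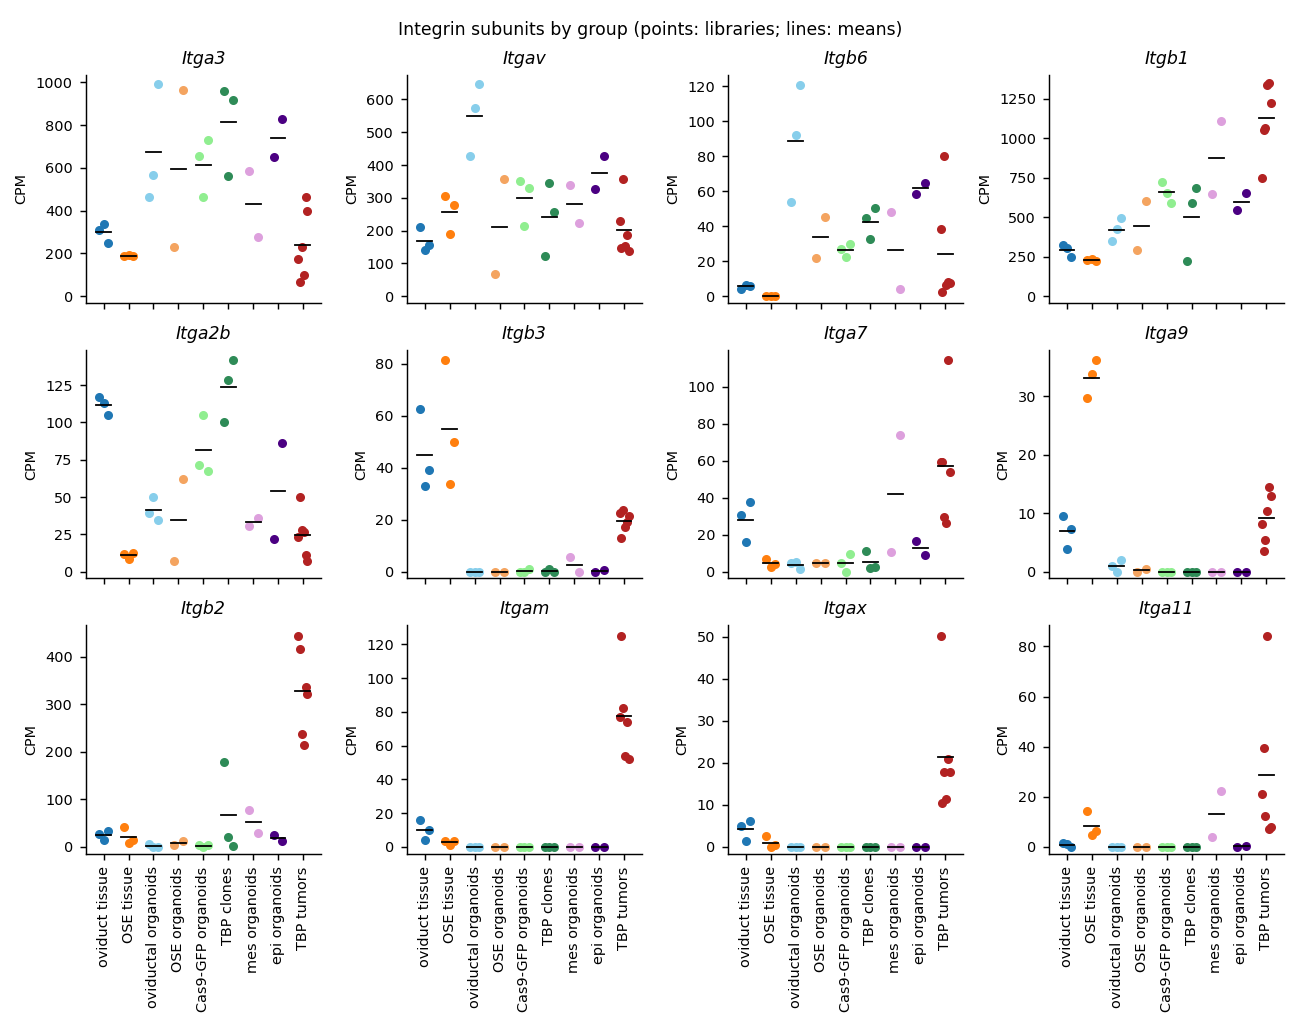
Levels (CPM, linear axes that differ between panels) of 12 integrin subunits in each library, by group, with a line at the mean of each group. Itgb6 is higher in each organoid library but T3-mes than in either tissue, and Itgb3 is at most 5.47 CPM in organoids. Itgam, Itgax and Itgb2 are highest in the tumors. Itga11 is highest in Tumor 4 (84.2 CPM), but T3-mes (22.3 CPM) lies above Tumors 1, 3, 5 and 6.

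TBP clones were compared with Cas9-GFP organoids to see what the mutations did to the set. None of the 16 genes tested was called by edgeR or DESeq2, and 4 had an unadjusted p under 0.05. Over all 7708 genes, 0.389% were called higher in the clones and 0.428% lower. At an unadjusted p under 0.05, 392 of all genes were higher and 375 lower. The 4 genes were Lamb3 (1.43 ± 0.49 (SE), adjusted p = 0.303), Lama3 (1.21 ± 0.39 (SE), adjusted p = 0.262), Lamb1 (1.13 ± 0.35 (SE), adjusted p = 0.231) and Itgb5 (-1.16 ± 0.39 (SE), adjusted p = 0.289). Lamb3 was at 55.9, 31.6 and 29.9 CPM in the clones and 12.4, 19.0 and 7.49 CPM in the controls, and Lama3 at 112, 87.3 and 69.8 CPM against 31.5, 53.5 and 27.8 CPM. In both, every clone lay above every control, with the shallow TBP clone 1 the highest. Lamb1 was at 168, 238 and 397 CPM against 133, 105 and 145 CPM, and Itgb5 at 33.5, 31.6 and 22.1 CPM against 71.7, 41.4 and 68.4 CPM. Itgb2 had too few counts in most libraries for the test, and its 179 CPM in TBP clone 1 stood for 16 counts. None of the genes was called without TBP clone 1 either.

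Neither the controls nor the clones were tested against the oviductal organoids. Lama5, Itgb6 and Itgb4 were counted in each of the 6 libraries of controls and clones, Itgb6 at 26.8, 22.4 and 29.9 CPM in the controls and 44.7, 32.7 and 50.2 CPM in the clones. Itgam, Itgax, Itga9, Itga11, Lama2 and Lama4 had no count in any of the 6. Itga2, a receptor for collagen and laminin, was at 28.7, 12.1 and 28.9 CPM in the controls and 0, 28.4 and 9.58 CPM in the clones, where it had no count in TBP clone 1. Itga6 was at 40.1, 74.3 and 56.7 CPM in the controls and 11.2, 141 and 41.3 CPM in the clones (0.43 ± 0.53 (SE), adjusted p = 0.842), the clones spreading over a wider range than the controls.

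Of the 4 tumor-derived lines, the mixed lines (T1-mes and T3-mes) and the epithelial lines (T2-epi and T4-epi) were compared. None of 20 genes tested was called by edgeR, whereas DESeq2 called Itga6, the only gene with an unadjusted p under 0.05. Over all 9775 genes, 1% were called higher in the mixed lines and 0.123% lower. At an unadjusted p under 0.05, 883 of all genes were higher and 495 lower. Itga6 was at 20.5 CPM in T1-mes, 7.76 CPM in T3-mes and 85.0 and 96.1 CPM in the epithelial lines T2-epi and T4-epi, lower in both mixed lines (-2.67 ± 0.53 (SE), adjusted p = 0.0899). The 2 mixed lines were unlike each other in some of the other genes. Lama3 was at 64.7 CPM in T1-mes, 9.22 CPM in T3-mes and 42.3 and 157 CPM in the epithelial lines T2-epi and T4-epi, and Lamb3 at 31.0 CPM in T1-mes, 4.37 CPM in T3-mes and 36.1 and 50.5 CPM in the epithelial lines T2-epi and T4-epi. In both chains T3-mes alone was low, and T1-mes resembled the epithelial lines. Itgb6 followed the same order, at 48.3 CPM in T1-mes, 4.37 CPM in T3-mes and 58.4 and 65.0 CPM in the epithelial lines T2-epi and T4-epi.

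Other genes set T3-mes or T1-mes apart in the opposite direction. Itga7 was at 10.5 CPM in T1-mes, 73.7 CPM in T3-mes and 16.6 and 9.22 CPM in the epithelial lines T2-epi and T4-epi, and Itga11 at 4.10 CPM in T1-mes, 22.3 CPM in T3-mes and 0 and 0.485 CPM in the epithelial lines T2-epi and T4-epi. Both were highest in T3-mes. Lama4 was at 28.2 CPM in T1-mes, 3.88 CPM in T3-mes and 0 and 0 CPM in the epithelial lines T2-epi and T4-epi, highest in T1-mes, and Lamc1, at 190.0 CPM in T1-mes, 97.0 CPM in T3-mes and 97.3 and 93.2 CPM in the epithelial lines T2-epi and T4-epi, was highest there too. Without T1-mes, 9 genes were called, among them Itga11 (6.20), Itgb8 (5.21) and Itga7 (2.50) higher in T3-mes, and Itgb6 (-3.82), Itga6 (-3.55), Lama3 (-3.45), Lamb3 (-3.31) and Itga2 (-2.93) lower. Without T3-mes, 1 was called, Lama4 (8.90). Of all genes, 14% were called without T1-mes and 2.57% without T3-mes. Each of these fits left 1 mixed line, which was assumed to vary like the epithelial ones. Markers moved alongside: the fibroblast sum was 3127 CPM in T1-mes and 7546 CPM in T3-mes, against 31.3 and 102 CPM in the epithelial lines, and the epithelial sum was 383 CPM in T3-mes against 3733 CPM in T1-mes. Their part was not tested.

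Tumors were set against the TBP clones, though which clone gave rise to which tumor is not given. Integrins of leukocytes and fibroblasts and the laminin chains of muscle and vessels were higher in the tumors, and some epithelial laminin chains and laminin receptors were lower. Of 26 genes tested, 16 were called, 10 higher and 6 lower. Among all 10473 genes, 20.1% were called higher and 11.7% lower. The median log2 fold change was 0.66 for the set and 0.16 for all genes. Levels did not overlap for 13 of the 37 genes that were higher and 4 that were lower in tumors (16.4% and 6.03% of all genes counted). Without the shallow TBP clone 1, 17 were called, and 34.2% of all genes tested. The 3 comparisons with tumors share the 6 tumor libraries.

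Itgam, the alpha subunit of macrophages and neutrophils, was at 52.2 to 125 CPM (median 75.4) in the tumors and had no count in the clones, at least 162-fold higher. Its relative Itgax, known from dendritic cells and macrophages, was at 10.5 to 50.2 CPM (median 17.9) and had no count in the clones either (at least 47.5-fold higher). Their shared beta subunit Itgb2 was at 214 to 444 CPM (median 329) against 179, 20.9 and 1.37 CPM and missed the threshold (2.97 ± 1.08 (SE), adjusted p = 0.0563). The high value of TBP clone 1 stood for 16 counts, and without that clone, as with DESeq2, Itgb2 was called. Summed macrophage markers were 1288 to 3767 CPM in tumors against 92.2 to 423 CPM in the clones, where Lyz2, C1qa, C1qb and C1qc were at 0. Itga11 was at 7.10 to 84.2 CPM (median 16.7) (at least 44.0-fold higher), Lama4 at 15.5 to 41.6 CPM (median 26.4) (at least 51.6-fold higher), Lama2 at 6.12 to 19.1 CPM (median 8.92) (at least 21.7-fold higher) and Itga9 at 3.50 to 14.5 CPM (median 9.30) (at least 20.2-fold higher). None of these 4 had a count in any clone. Itgb3 had 2 counts in the clones and was at 13.1 to 23.7 CPM (median 20.3) in the tumors (64.4-fold higher, with a 95% exact interval of 17.6 to 535). Summed fibroblast markers were 9789 to 57137 CPM in tumors against 0.456 to 22.3 CPM in the clones. As the tumors held host cells, tumor and host transcripts cannot be told apart in these libraries.

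Itga7 was at 26.5 to 114 CPM (median 56.7) in tumors against 11.2, 2.14 and 2.51 CPM in clones (4.35 ± 0.68 (SE), adjusted p = 0.000978), and every tumor exceeded every clone. Itgb5 and Itgb1 were the remaining genes called higher, Itgb1 in a call lost without TBP clone 1 or 2 or any tumor but Tumor 1 (adjusted p = 0.053 to 0.0782). In the other direction, Lama5 was at 9.04 to 111 CPM (median 34.1) against 134, 289.8 and 229 CPM (-2.32 ± 0.64 (SE), adjusted p = 0.0178). It was lower in every tumor than in any clone, and its call was lost without TBP clone 2 (adjusted p = 0.0824) or TBP clone 3 (0.055). Itga3 was at 66.4 to 463 CPM (median 201) against 961, 561 and 916 CPM (-1.76 ± 0.52 (SE), adjusted p = 0.0253), a call lost without TBP clone 1 (0.0628) or TBP clone 3 (0.0856). Itga6 was at 14.1 to 47.8 CPM (median 20.1) against 11.2, 141 and 41.3 CPM (-1.63 ± 0.56 (SE), adjusted p = 0.0447). That difference came from TBP clone 2 in large part, since without it the value was -0.45, adjusted p = 0.615, and the call was lost without any 1 tumor but Tumor 3 too (0.0706 to 0.0825). Itga2b (-2.41 ± 0.48 (SE), adjusted p = 0.00336) and Lamb1 (-1.35 ± 0.30 (SE), adjusted p = 0.00637) were lower in the tumors as well. Summed epithelial markers were 194 to 3316 CPM (median 437) in the tumors against 2927 to 5369 CPM (median 5161) in the clones. The part of epithelial content in these differences was not tested.

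The tumors were also unlike each other in the epithelial laminin. Lamb3 was at 47.5 CPM in Tumor 1 and 44.4 CPM in Tumor 3, 17.0 CPM in Tumor 4, and 6.12, 4.20 and 8.59 CPM in Tumors 2, 5 and 6. Itgb6 was at 38.2 and 80.3 CPM in Tumors 1 and 3 and at 2.62, 6.62, 8.07 and 7.36 CPM in Tumors 2, 4, 5 and 6. Tumors 1 and 3 were thus the highest for both genes. They also had the highest epithelial marker sums, 2534 and 3316 CPM, against 194 to 482 CPM in the other tumors. Lama3 was at 68.2, 159 and 66.2 CPM in Tumors 1, 3 and 4, against 13.1, 0.323 and 8.59 CPM in Tumors 2, 5 and 6. Tumor 4 kept Lama3 high while its Itgb6 level and epithelial sum were low, and it had the highest levels of the basal keratins Krt5 (736 CPM) and Krt14 (744 CPM). These are single libraries of 1 group, so they were not tested against each other.

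**Figure D5:**
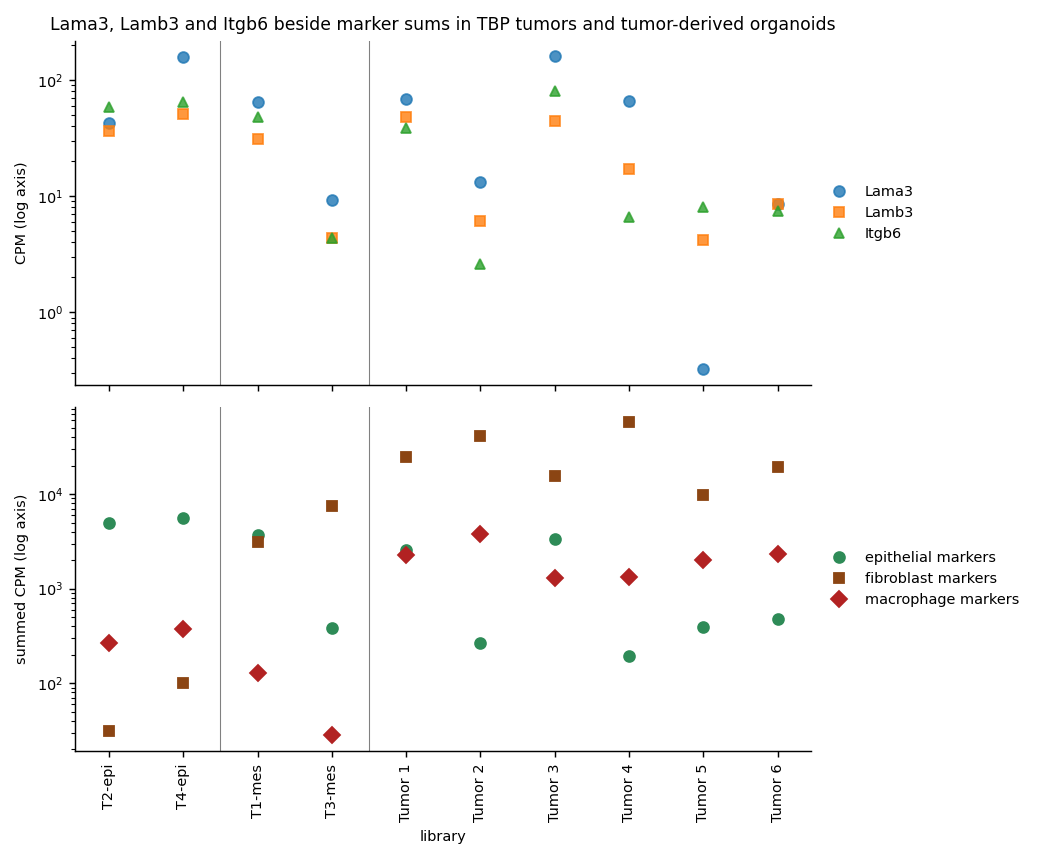
Levels (CPM, log axis) of Lama3, Lamb3 and Itgb6 beside the summed epithelial, fibroblast and macrophage markers in each tumor-derived organoid line and each tumor. T3-mes and Tumors 2, 5 and 6 are low in Lamb3 (at most 8.59 CPM), and Tumors 1 and 3 are high in it.

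Tumors and the organoids derived from such tumors were compared as well. Of 27 genes tested, 9 were called, all higher in the tumors, where 15.1% of all 10605 genes were called higher and 12.3% lower. The median log2 fold change was 0.63 for the set and 0.02 for all genes. Itgam (at least 215-fold higher), Itgax (at least 63.0-fold higher) and Itga9 (at least 26.9-fold higher) had no count in the 4 lines, and Lama2 had 1 (86.3-fold higher, with a 95% exact interval of 15.2 to 3437). Itgb2 was at 77.0 CPM in T1-mes, 28.6 CPM in T3-mes and 25.6 and 13.6 CPM in the epithelial lines T2-epi and T4-epi against 214 to 444 CPM (median 329) in tumors (3.19 ± 0.47 (SE), adjusted p = 0.000825), without overlap. Itgb3 was at 5.47 CPM in T1-mes, 0 CPM in T3-mes and 0 and 0.485 CPM in the epithelial lines T2-epi and T4-epi (3.66 ± 0.83 (SE), adjusted p = 0.00846). Itgb5, which pairs with Itgav, was at 20.0 CPM in T1-mes, 43.2 CPM in T3-mes and 25.2 and 22.8 CPM in the epithelial lines T2-epi and T4-epi against 57.7 to 131 CPM (median 95.4) in tumors (1.76 ± 0.30 (SE), adjusted p = 0.00204), again without overlap. Itga4, a receptor for fibronectin and VCAM, was at 4.56 CPM in T1-mes, 4.37 CPM in T3-mes and 4.75 and 2.43 CPM in the epithelial lines T2-epi and T4-epi against 4.73 to 16.9 CPM (median 9.30) (1.32 ± 0.37 (SE), adjusted p = 0.0237), a call lost without T4-epi (adjusted p = 0.0702). Lamc1 was the last gene called, and its call was lost without Tumor 2, 5 or 6 or without T2-epi, T3-mes or T4-epi (adjusted p = 0.0638 to 0.102).

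None of the epithelial chains listed here was called between the tumors and the tumor-derived lines. Lama5 (-1.62 ± 0.60 (SE), adjusted p = 0.0664), Lama3 (-0.35 ± 1.09 (SE), adjusted p = 0.841), Lamb3 (-0.49 ± 0.77 (SE), adjusted p = 0.673) and Itgb6 (-0.83 ± 0.91 (SE), adjusted p = 0.537) all had a negative fold change without being called by edgeR, while DESeq2 called 12 genes (31.2% of all genes), among them Lama5 lower and Itgb1 higher. Without T3-mes, whose epithelial markers were the lowest of the 4 lines, 15 genes were called, 11 higher and 4 lower, as were 31.3% of all genes. The group of lines is mixed, and the spread within it entered these tests.

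The tumors were also compared with normal oviduct tissue, which holds stroma and leukocytes as well. Of 28 genes tested, 12 were called, 8 higher and 4 lower in the tumors (23.7% and 22.4% of all 10827 genes), with a median log2 fold change of 0.47 for the set and 0.08 for all genes. Itga11 was at 7.10 to 84.2 CPM (median 16.7) in tumors against 1.45, 1.32 and 0 CPM (4.67 ± 1.25 (SE), adjusted p = 0.012), Itgb2 at 214 to 444 CPM (median 329) against 26.8, 14.5 and 33.0 CPM (3.67 ± 0.35 (SE), adjusted p = 4.4e-05) and Itgam at 52.2 to 125 CPM (median 75.4) against 16.0, 3.95 and 9.78 CPM (2.85 ± 0.42 (SE), adjusted p = 0.000492). For these 3 no tumor overlapped with the tissue. Itgb1, the beta subunit shared by most matrix-binding integrins, was at 749 to 1346 CPM (median 1143) against 321, 304 and 246 CPM (1.92 ± 0.23 (SE), adjusted p = 0.000143), and Lamc1 at 145 to 274 CPM (median 206) against 98.0, 116 and 90.4 CPM (1.0 ± 0.22 (SE), adjusted p = 0.00439). Itgb1 was higher in each tumor. Itgax (2.28 ± 0.64 (SE), adjusted p = 0.0147) and Lamb1 (0.73 ± 0.20 (SE), adjusted p = 0.0141) were called as well, and both calls were lost without oviduct tissue 1 (adjusted p = 0.0505 and 0.0519) or oviduct tissue 2 (0.0588 and 0.0587). Itga5, the fibronectin receptor, lay at the threshold (1.59 ± 0.59 (SE), adjusted p = 0.0483) and was lost without any 1 of Tumors 2, 4, 5 and 6 or of oviduct tissue 1 and 3 (adjusted p = 0.0573 to 0.163). Markers moved with these genes: 7 of 8 macrophage markers and 5 of 9 fibroblast markers tested were called higher in tumors and 5 of 6 smooth muscle markers lower. Macrophage sums were 1288 to 3767 CPM in tumors against 343 to 445 CPM in oviduct tissue, fibroblast sums 9789 to 57137 CPM against 3972 to 7141 CPM, and smooth muscle sums 205 to 1150 CPM against 5579 to 7004 CPM. Their part in the differences was not tested.

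Lower in tumors than in oviduct tissue were Lama1 (-3.11 ± 0.49 (SE), adjusted p = 0.000648), Itga2b (-2.26 ± 0.45 (SE), adjusted p = 0.00251), Lamb2 (-1.37 ± 0.21 (SE), adjusted p = 0.000654) and Itgb3 (-1.23 ± 0.26 (SE), adjusted p = 0.00334). Lama1 was at 0 to 3.07 CPM (median 1.49) in tumors against 16.0, 11.8 and 12.2 CPM in tissue, and Itga2b at 7.36 to 49.8 CPM (median 24.7) against 117, 113 and 105 CPM. Neither overlapped. Lama3 varied widely among tumors, and its difference from oviduct tissue was not called (0.13 ± 1.09 (SE), adjusted p = 0.932).

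The rest of the set was counted rarely. Itgad, a leukocyte alpha subunit, had 3 counts in all 27 libraries, all in tumors. Itga8, which binds nephronectin, had 28 counts, Lamc3 38, Itgae 53, Itgb7 59, Itgal 81, Itga10 85 and Itgb8 97. Itga8 was at 5.08, 6.58 and 3.67 CPM in oviduct tissue, 0, 1.16 and 1.59 CPM in OSE tissue and 0 in every organoid library. Itgal, a leukocyte alpha subunit too, reached 14.7 CPM in Tumor 1 and 7.79 CPM in Tumor 3 and was at 0 in all organoids but T2-epi, where it had 1 count. Itgb7, a beta subunit that pairs with Itgae, reached 11.8 CPM in T1-mes, its highest level of all libraries. These genes did not pass the filter on low counts in the comparison of oviductal organoids with tissue, and without that filter Itgal, Itga8 and Itgb7 were called lower in the organoids.

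Other genes of the same pathway were counted by list, here and below, beside these shares of all genes. In oviductal organoids against tissue 18.7% of all genes were called higher and 24.2% lower, and in OSE organoids 14.5% and 18.6%. In tumors the shares were 20.1% and 11.7% against clones, and 23.7% and 22.4% against oviduct tissue. They were 26.9% and 24.3% in oviduct against OSE tissue, and 1% and 0.123% in mixed against epithelial lines. The lists were not tested as sets. Of the other basement membrane genes (collagen IV, nidogens, perlecan and others), 13 of 18 were tested in oviductal organoids against tissue, 2 higher and 7 lower, with a median log2 fold change of -2.55. The higher ones were Tinagl1 (2.37), a basement membrane glycoprotein, and Agrn (1.84), the proteoglycan agrin, and the largest drops were in Col15a1 (-10.70) and Sparc (-9.30). In OSE organoids Tinagl1 (2.22) and Agrn (2.08) were also the higher ones, and 4 were lower, Nid1 (-8.68), the nidogen that bridges laminin and collagen IV, and Fras1 (-6.83) most. In tumors against clones 7 of 12 tested were higher, led by Sparc (13.26) and Col4a2 (10.76), and Tinagl1 was lower (-1.74). Between the mixed and epithelial tumor-derived lines only Sparc was called (6.24), of 8 tested. In the oviduct against OSE tissue, 6 of 13 were higher and 2 lower. The fold changes of genes at or near 0 in a group depend on how zeros are handled.

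Ligands of integrins other than laminins and collagens moved both ways. In oviductal organoids 6 of 12 tested were higher than in tissue, among them Spp1 (8.94), which encodes osteopontin, and Ctgf (6.93), and 4 were lower, among them Postn (-8.97), the matrix protein periostin, and Npnt (-4.43), the ligand of Itga8. In OSE organoids 6 of 13 were higher, including Spp1 (5.41) and Cdh1 (4.95), the E-cadherin bound by Itgae with Itgb7, and 2 were lower, Fbln5 (-7.15) and Postn (-6.01). In tumors against clones 10 of 18 were higher, with Postn (13.73) and Tnc (11.83), the tenascin bound by Itga9, on top, and none was lower. Against oviduct tissue, 11 of 18 were higher in tumors, Spp1 most (9.90), and Npnt was lower (-3.24).

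Among hemidesmosome partners and laminin receptors that are not integrins, 3 of 8 tested were higher and 3 lower in oviductal organoids. Bcam, an immunoglobulin-type receptor for the Lama5 chain, was higher (2.76), as was Sdc4 (1.53), and both were the ones called in OSE organoids too (2.47 and 0.91). In tumors Bcam was lower than in clones (-4.41) and than in tumor-derived organoids (-3.76), while Krt14 (11.85) and Krt5 (7.99), the keratins of basal cells, were higher than in clones. Of the adaptors and effectors inside the cell, 2 of 20 were higher and 7 lower in oviductal organoids, Vasp (1.49) and Zyx (-1.84) most in either direction. In OSE organoids 5 of 22 were higher and 3 lower, led by Fermt1 (7.14), the kindlin of epithelia, and Parvb (-7.54). In tumors against clones 11 of 23 were higher, led by Parvb (8.39), and 2 lower, Pxn (-1.89) and Actn4 (-1.74). Between TBP clones and Cas9-GFP organoids no gene of any of the 4 lists was called by edgeR.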

How the data were processed

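Bulk CEL-Seq2 libraries were made from 3′ ends of mRNA. Per the labels and the methods, the authors aligned reads with BWA to GRCm38 and deposited raw read counts per gene, from uniquely mapped reads on the right strand and without correction for molecular barcodes. The submitters' notes also name DESeq2 1.18.0. The deposited counts of 27 libraries were used for 18305 genes, after leaving out 1 spike-in entry that held 1 count in all. GEO holds 11 sample records, several with more than 1 library, so each library was mapped to its group by its column name. No columns of other samples were present. A further OSE organoid line, which the authors left out, was not analysed here. Libraries of a group are lines, clones, tumors or tissue samples, some of which share a clone, and p-values measure only the spread between them.

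Genes were filtered with filterByExpr, scaled by TMM over the libraries compared, and tested with edgeR 4.0.16 (quasi-likelihood, two-sided, R 4.3.3) with Benjamini-Hochberg adjustment over all genes tested and a threshold of 0.05. SE was the absolute log2 fold change over the root of F. Levels are CPM with TMM factors over all 27 libraries. Intervals of pooled ratios are exact 95% intervals, and the floor of 3 counts was set over a pooled group. Bounds cover counting error only. Scripts were tested on simulated data, with 200 genes per comparison changed 4-fold. The edgeR test recovered from 12% of them (oviductal against OSE organoids) to 91.5% (oviduct against OSE tissue). It recovered 24.5% for mixed against epithelial lines, 35% for tumors against clones and 40.5% for OSE organoids against tissue. Genes not called in such comparisons may still differ. Positions are from GENCODE vM21 (GRCm38), in which all 37 genes were matched. Python 3.11.15, pandas 2.3.3, scipy 1.17.1 and matplotlib 3.10.9 were used.

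A gene of the set that enters the counts but is not reported here was left out of the figures. The genes, lists and tests were chosen with earlier results of these data known. Genes called in a comparison are named, the 8 largest per direction with their values and the others by symbol, and genes not called are named where a partner subunit or sister chain was called or where the groups do not overlap. From the pathway lists, the 2 called genes with the largest change per direction could be named. Krt5, Krt14, Ovgp1, Cd53, the marker genes at 0, genes counted rarely and the genes described where none was called were named after their values were seen. Alternatives were DESeq2 1.42.0, RLE size factors, no filter on low counts, 1 fit of all libraries, a replicate block and leaving out each library in turn. Libraries of a group were compared pairwise, and in each of 33 pairs the counts differed by more than sampling noise (lowest chi-square per gene 2.53).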

Additional observations from a re-analysis of the deposited data

Results flagged for a closer look

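Among the TBP tumors, a single tumor stood far above the other 5 for 3 genes. Itga6 was at 47.8 CPM in Tumor 3, against 25.3 CPM in the next tumor, Itgax at 50.2 CPM in Tumor 1, against 21.0 CPM, and Lama2 at 19.1 CPM in Tumor 1, against 10.4 CPM. Among the 4 tumor-derived organoid lines, 1 line stood apart for 6 genes. Itga7 was at 73.7 CPM in T3-mes, against 16.6 CPM in the next line. T1-mes was the highest for Itgb3 (5.47 CPM, 12 counts), Lama4 (28.2 CPM), Lamc1 (190.0 CPM, against 97.3 CPM in the next line) and Lama2 (0.456 CPM, a single count where the other lines had none). Itga4 was lowest in T4-epi, at 2.43 CPM and 5 counts. These came from 52 gene and group pairs looked at. The cutoff flags about 1 in 20 groups of normally distributed values. CPM at low counts are not distributed in this way, so the number of flags expected by chance here is not known.

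The change from tissue to organoids differed between the oviduct and the OSE, by the test of the difference itself. The oviductal change minus the OSE change was -3.68 for Lama3, -3.07 for Itga2b, -2.84 for Itga7 and -1.95 for Lama5 on the log2 scale, and 7.15 for Lama1, whose organoid levels rest on 2 counts. Without OSE organoids 2, the library with oviductal transcripts, those of Itga2b (-0.65, adjusted p = 0.474), Lama3 (-2.03, adjusted p = 0.0899) and Itga7 (-2.81, adjusted p = 0.0652) were no longer called.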

How the results depend on the processing

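Over the fits with another tool, scaling, filter or set of libraries, the 90 differences called for single genes gave 1062 further values, of which 953 kept their direction and call, 109 kept their direction only and 0 turned. The counts of genes called moved by over 1.5 times in some comparisons. Between TBP clones and Cas9-GFP organoids, 1 gene was called without the filter on low counts (Itgb2, from TBP clone 1) instead of 0. Of all genes, 372 of 14318 were called in that fit, against 63 of 7708 in the main fit. Between mixed and epithelial lines, DESeq2 called 1 gene, the fit without the filter 1 and the fit of all 27 libraries 2, instead of 0. Of all genes, these fits called 534 of 9775, 283 of 14306 and 555 of 12810, against 110 of 9775 in the main fit. Leaving out a library there left 1 line on a side, so such fits are not counted here. Between tumors and tumor-derived organoids, the fit of all libraries called 18 genes instead of 9. It called 4450 of all 12810 genes, against 2911 of 10605 in the main fit. Leaving out each library gave 7 to 15 genes of the set and 2325 to 3418 of all genes. Between oviductal and OSE organoids, leaving out each library gave 0 to 5. For the difference between both organoid-to-tissue changes, DESeq2 called 11 and the fit without the filter 10 instead of 6. Of all genes, these fits called 1541 of 11458 and 1491 of 17040, against 1338 of 11458 in the main fit. Leaving out a tissue or an oviductal organoid library gave 3 to 7 genes of the set and 828 to 1120 of all genes. The cause of these shifts was not tested. A fit of all libraries shares 1 estimate of spread over unlike groups, and it lost 18 of the 90 calls, against 1 to 3 under DESeq2, RLE size factors or no filter. Libraries with the same replicate number deviated little together across groups (correlations 0.00985 to 0.135). Tumor-derived lines were matched by sample record instead, T1-mes with T2-epi, from neighboring tumors of 1 mouse, and T3-mes with T4-epi. With the replicate number as a block, 19 genes were called in oviductal organoids against tissue (18 of them shared), and 4004 of all 9477 genes. In oviduct against OSE tissue the same 13 were called, and 4589 of all 8787 genes. In TBP clones against Cas9-GFP organoids 0 were called, and 95 of all 7708 genes. In mixed against epithelial lines, where the block was the sample record, 0 were called, and 240 of all 9775 genes. TBP clone 1 was by far the shallowest library, and without it 0 genes were called between TBP clones and Cas9-GFP organoids too.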
